A study of Caenorhabditis elegans with 4 samples.

Results

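acdh-1, pmp-5 and R08E5.3 are 3 metabolic genes of Caenorhabditis elegans that fell under arsenite in both strains studied. They are 3 of the 302 genes that the 4 deposited tables name, and they were chosen because of these falls, so their stress folds are a description and carry no test. Whole young adult nematodes of the strains N2, the standard wild type, and VZ1 were grown on the bacterial food OP50 and kept there unstressed or stressed for 5 h in 10 mM NaAs, the salt sodium arsenite, which causes oxidative stress. VZ1 is known as a trx-1 deletion strain, although the labels give only its name, and trx-1 is listed in no table. Each of the 4 groups has 1 library of total RNA, so no difference below has a replicate check. The values are FPKM (fragments scaled to transcript length and to the size of the library), and each table compares a pair of libraries and lists only the genes that the authors called. The depth of the libraries is unknown. RNA from whole animals cannot tell fewer cells that express a gene from less RNA per cell.

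The worm can break down propionate in a pathway that needs vitamin B12, or, when the vitamin is short, in a B12-independent route called the propionate shunt. Vitamin B12 is also the cofactor of methionine synthase, which feeds the methionine cycle and so the supply of S-adenosylmethionine for methyltransferases. acdh-1 encodes the acyl-CoA dehydrogenase of the first shunt step and is widely used as a reporter of low B12. pmp-5 encodes an ABC transporter of the ABCD family, related to human ABCD4, which carries B12 out of lysosomes. R08E5.3, now named rips-1 in the RefSeq gene table, encodes a predicted S-adenosylmethionine-dependent methyltransferase.

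The transporter gene pmp-5 lies on the minus strand of chromosome V. In build ce10 the N2 stress table gives it at chrV:6662189-6666902 and the VZ1 stress table at chrV:6662241-6665791, with no other gene name at either locus. It stood at 279 FPKM in unstressed N2 and 11.6 FPKM in stressed N2. In VZ1 it stood at 242 FPKM without and 12.2 FPKM with arsenite. Both unstressed libraries thus lay far above both stressed ones, with 4.17% of the unstressed level left in N2 and 5.05% in VZ1. The fall was 24.0-fold in N2 (log2 fold −4.59) and 19.8-fold in VZ1 (log2 fold −4.31). The annotated gene has 13 exons and codes for 598 amino acids, and the microRNA gene mir-70 lies inside its extent on the same strand. None of the 4 tables lists mir-70.

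The shunt gene acdh-1 lies on chromosome I, at a locus that the authors' assembly merged with neighbouring genes. The N2 table gives it at chrI:6492886-6501415 together with uri-1, a prefoldin-like gene, and C55B7.3. The VZ1 table gives it at chrI:6497342-6501434 with C55B7.3 alone. The locus stood at 3144 FPKM in unstressed N2 and 429.6 FPKM in stressed N2. In VZ1 it stood at 2595 FPKM without and 209 FPKM with arsenite. Of all entries in each stress table, 151 in N2 and 106 in VZ1, this locus had the highest unstressed FPKM. It fell 7.32-fold in N2 (log2 fold −2.87) and 12.4-fold in VZ1 (log2 fold −3.64). All of these values are sums over the genes at the locus, and the contribution of uri-1 and C55B7.3 cannot be separated. In the annotation uri-1 ends 1326 bp before acdh-1 and C55B7.3 begins 421 bp after it, all 3 on the same strand. A further gene, mdt-18, overlaps uri-1 by 964 bp on the opposite strand. The strandedness of the libraries is not given, so reads in that overlap cannot be assigned to either gene.

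The methyltransferase gene R08E5.3 lies on the plus strand of chromosome V, at chrV:3772174-3774420 in both stress tables. It stood at 156 FPKM in unstressed N2 and 4.63 FPKM in stressed N2. In VZ1 it stood at 149 FPKM without and 2.97 FPKM with arsenite. It was the lowest of the 3 genes in all 4 libraries and kept the smallest part of its level, 2.96% in N2 and 1.99% in VZ1. The fall was 33.8-fold in N2 (log2 fold −5.08) and 50.3-fold in VZ1 (log2 fold −5.65). It is the only one of the 3 whose locus has the same extent in both tables. The annotated gene has 5 exons and codes for 365 amino acids. It overlaps cysl-3, a gene of the cysteine synthase family, by 74 bp on the opposite strand, and since the strandedness of the libraries is not given, reads in that overlap cannot be assigned to either gene.

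**Figure D1:**
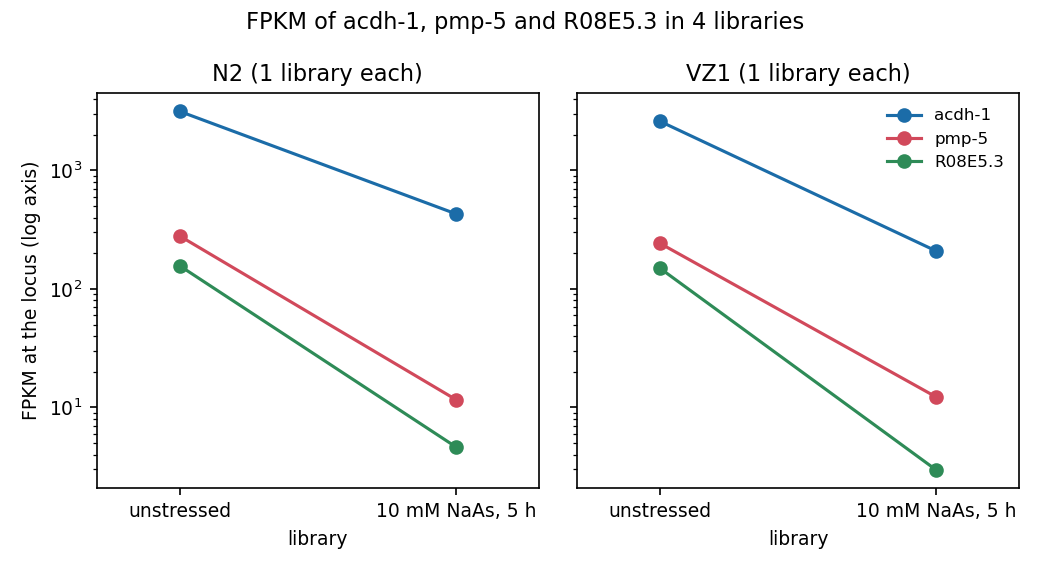
FPKM of each locus on a log axis (vertical) in the unstressed and the stressed library of N2 (left) and VZ1 (right), with 1 point for each library and a line for each gene. acdh-1 stays highest (3144 to 429.6 FPKM in N2) and R08E5.3 lowest (156 to 4.63 FPKM in N2), and all 6 lines fall.

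The extent of a locus matters because it sets which transcripts, and so which genes, are counted in its FPKM. It is a genomic span and not a transcript length, so FPKM do not scale with it. The acdh-1 locus spans 8530 bp in the N2 table and 4093 bp in the VZ1 table, a ratio of 2.08. The excess lies on the side of uri-1, where the N2 locus starts 4456 bp earlier, while at the other end the VZ1 locus reaches 19 bp further. The pmp-5 locus spans 4714 bp in N2 and 3551 bp in VZ1, and there the N2 locus ends 1111 bp later, on the side of the gene's 5′ end. The R08E5.3 locus spans 2247 bp in both. Folds within a table compare the same locus in both libraries. Levels and folds set side by side between strains are of unlike loci for acdh-1 and, to a lesser degree, for pmp-5.

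**Figure D2:**
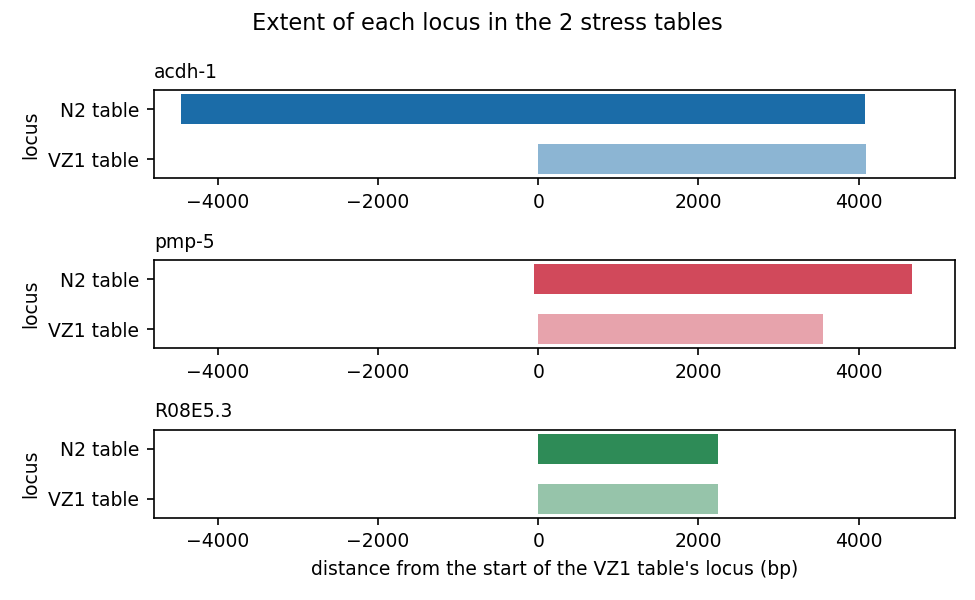
Extent of each locus in the N2 and the VZ1 stress table, as distance in bp from the start of the VZ1 table's locus (horizontal), with 1 bar for each table. The acdh-1 locus spans 8530 and 4093 bp, the pmp-5 locus 4714 and 3551 bp, and the R08E5.3 locus 2247 bp in both.

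By fold with no pseudocount, R08E5.3 came first, pmp-5 next and acdh-1 last in both strains. This order rests on the low stressed levels. With 10 FPKM added to every value, pmp-5 (log2 fold −3.74) came before R08E5.3 (−3.51) in N2, and acdh-1 (−3.57) came before pmp-5 (−3.50) in VZ1. By level lost, acdh-1 came first and R08E5.3 last. The acdh-1 locus lost 2715 FPKM in N2 and 2386 FPKM in VZ1. pmp-5 lost 267 and 230.0 FPKM, and R08E5.3 lost 152 and 146 FPKM. In FPKM the levels of the 3 genes therefore drew together under arsenite. Their ratios, which rest on the low stressed levels of pmp-5 and R08E5.3, grew. The acdh-1 locus stood 20.1 times above R08E5.3 in unstressed N2 and 92.8 times above it in stressed N2, and in VZ1 the ratio went from 17.4 to 70.4. pmp-5 stood 1.78 times above R08E5.3 in unstressed and 2.51 times in stressed N2, and 1.62 and 4.13 times in VZ1.

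In N2 36 of 14397 tested genes were listed as fallen (0.250%), and in VZ1 18 of 14420 (0.125%), and since all 3 genes were chosen on these contrasts nothing is read from their presence. Of the falls 10 in N2 and 7 in VZ1 were listed at 0 in stressed animals and have no fold. Among the other 26 in N2, R08E5.3 had the fourth-largest fall (rank 4), pmp-5 rank 5 and the acdh-1 locus rank 13. Just above R08E5.3 stood the yolk protein gene vit-5 (log2 fold −5.08), the cuticle collagen gene col-3 (log2 fold −5.22) and vit-4 (log2 fold −7.36). Just below pmp-5 stood F44G3.2 (log2 fold −3.48). Among the 11 in VZ1, R08E5.3 had rank 1, the lipase-related gene lips-6 rank 2 (log2 fold −4.95), pmp-5 rank 3 and the acdh-1 locus rank 4. The median log2 fold of the falls was −2.78 in N2 and −3.28 in VZ1, so the acdh-1 fold was close to the median fall in N2.

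**Figure D3:**
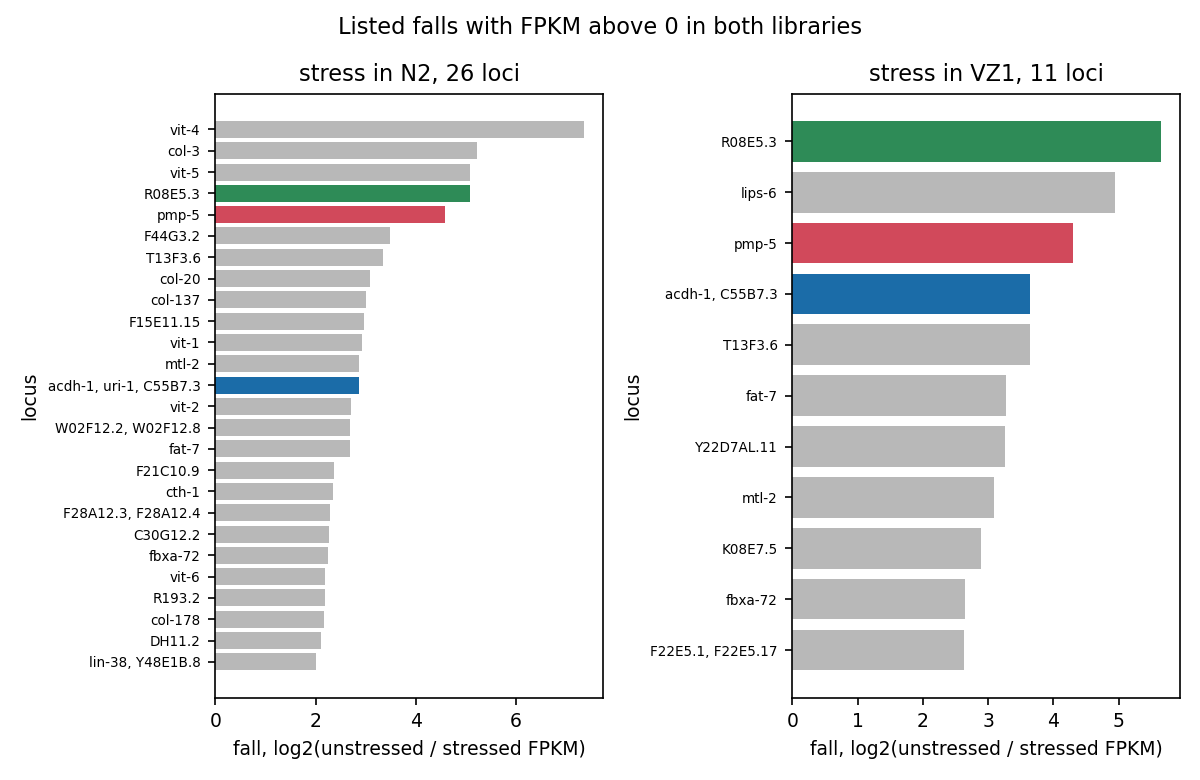
Fall of each listed locus with FPKM above 0 in both libraries, as log2 of unstressed over stressed FPKM (horizontal), in N2 (left, 26 loci) and VZ1 (right, 11 loci), with acdh-1 in blue, pmp-5 in red, R08E5.3 in green and other loci in grey. R08E5.3 and pmp-5 are at ranks 4 and 5 in N2 and 1 and 3 in VZ1, and acdh-1 is at ranks 13 and 4.

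On the FPKM scale the acdh-1 locus alone made up 42.5% of the summed loss of the 26 falls in N2 and 59.99% of that of the 11 falls in VZ1. With pmp-5 and R08E5.3 the shares came to 49.1% and 69.4%. These are shares of the loss over listed loci with FPKM above 0 in both libraries, not over all transcripts. They leave out the falls listed at 0 in stressed animals, of which the entry named mir-260 lost most, 372 FPKM in N2. That entry is given at chrII:2816974-3459412, an interval listed under Y110A2AL.6 in VZ1, so its value cannot be read as that of the microRNA. The unstressed level of the 3 genes was above the median of the falls, which was 101 FPKM in N2 and 132 FPKM in VZ1. Of listed loci with falls of log2 fold under −4, vit-4, vit-5, col-3 and lips-6 all started below R08E5.3, from 26.02 FPKM for col-3 to 98.9 FPKM for vit-4.

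**Figure D4:**
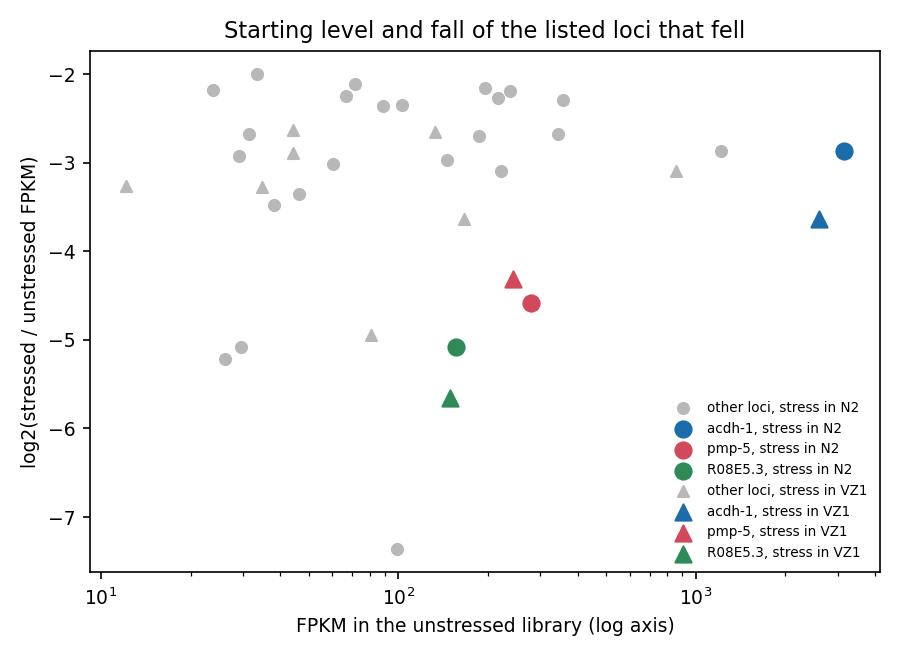
Log2 of stressed over unstressed FPKM (vertical) against FPKM in the unstressed library on a log axis (horizontal) for each locus that fell, with circles for N2 and triangles for VZ1. acdh-1 lies farthest right at 3144 and 2595 FPKM, and R08E5.3 is lowest of the triangles at a log2 fold of −5.65.

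Both strains' tables list 7 genes as fallen, 19.4% of the falls in N2 and 38.9% of those in VZ1. By the mean log2 fold over the strains R08E5.3 came first (−5.37), followed by pmp-5 (−4.45), then T13F3.6 (−3.49), the acdh-1 locus (−3.25), the metallothionein gene mtl-2 (−2.98), the fatty acid desaturase gene fat-7 (−2.98) and the F-box gene fbxa-72 (−2.45). With no pseudocount T13F3.6, which is none of the 3 genes, thus stood ahead of the acdh-1 locus. With 10 FPKM added, an alternative chosen after seeing the data, the order turned, with means of −3.62 for pmp-5, −3.56 for R08E5.3, −3.21 for acdh-1, −2.89 for mtl-2 and −2.43 for T13F3.6. T13F3.6 went from 46.3 to 4.54 FPKM in N2 and from 166 to 13.4 FPKM in VZ1. All 3 genes have the smallest q of the authors' deposited table in both strains, 0.00735 in N2 and 0.0111 in VZ1. As they were chosen on these contrasts, nothing is read from that. In the authors' deposited tables that q belongs to 21 falls in N2 and 9 in VZ1. On both lists are 3 loci, those of pmp-5, of R08E5.3 and of acdh-1 merged with C55B7.3. As 98 of 151 entries in N2 and 65 of 106 in VZ1 have the smallest p-value of the authors' deposited tables, 5e-05, that p-value does not rank the genes. The authors' p-value compares 2 libraries, not 2 conditions.

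The genes with the most similar stress folds were sought among the 73 loci listed in both strains with FPKM above 0 in all 4 libraries, by the Euclidean distance of the pair of log2 folds. Nearest to acdh-1 were fat-7 at a distance of 0.41, T13F3.6 at 0.48 and mtl-2 at 0.54. fat-7 stood at 31.6 and 4.93 FPKM in unstressed and stressed N2, and at 34.8 and 3.596 FPKM in VZ1. mtl-2 stood at 1218 and 166 FPKM in N2, and at 855 and 100.04 FPKM in VZ1. Nearest to pmp-5 were T13F3.6 at 1.41, R08E5.3 at 1.43 and acdh-1 at 1.84. R08E5.3 had pmp-5 at 1.43, T13F3.6 at 2.66 and acdh-1 at 2.99. These distances use no pseudocount and lean on low stressed levels. With 10 FPKM added to every value, the log2 folds in N2 and VZ1 were −2.84 and −3.57 for acdh-1. Those of fat-7 were −1.48 and −1.72, of mtl-2 −2.80 and −2.98, of pmp-5 −3.74 and −3.50 and of R08E5.3 −3.51 and −3.62. fat-7 then lay further from acdh-1 than pmp-5 and R08E5.3 did, so the neighbours depend on the pseudocount. With only 7 falls among the 73 loci, the nearest genes of each could come from only 6 others that fell.

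Setting VZ1 beside N2 asks whether the falls differ with the strain. Subtracting the N2 value from the VZ1 value of the log2 fold gave −0.76 for acdh-1, −0.58 for R08E5.3 and 0.28 for pmp-5. With 10 FPKM added to every value the differences were −0.73, −0.11 and 0.24, so that of R08E5.3 depends on its low stressed levels. With 1 library a group no spread can be set against these differences, and none was tested. Over the 73 loci the same difference had a median of 0.18, quartiles of −0.29 and 0.50, and a range from −1.56 to 1.08. The difference for acdh-1 ranked 4 and that for R08E5.3 ranked 7 from the lowest. A negative difference is a larger fall in VZ1 for a gene that fell, but a smaller rise for a gene that rose. The loci at ranks 1 to 3, C06E4.3 (−1.56), dod-24 (−0.86) and ugt-13 (−0.78), all rose, so the ranks compare unlike loci. The highest difference, 1.08 for hsp-16.41, was of a gene that rose more in VZ1. 6 of the 7 shared falls, all except pmp-5, had a lower log2 fold and so a larger fall in VZ1. Over the 73 loci the difference was below 0 up to rank 29 (C02D5.4) and above 0 from rank 30 (cnp-3). Most of the loci that rose also had a larger fold in VZ1, so larger folds there are not particular to the falls. For acdh-1 the fold in N2 includes uri-1 and that in VZ1 does not, and the part of this in the difference was not tested.

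**Figure D5:**
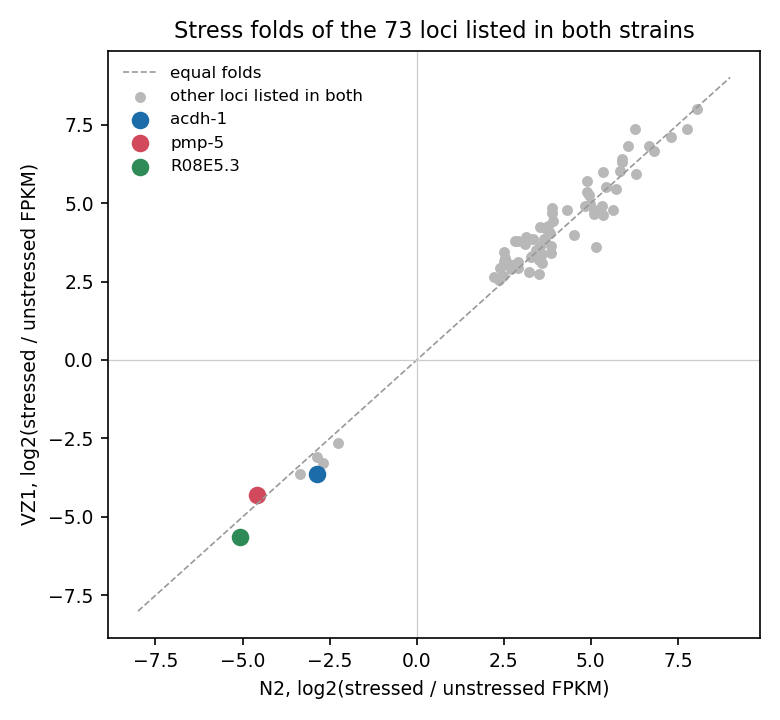
Log2 of stressed over unstressed FPKM in VZ1 (vertical) against that in N2 (horizontal) for the 73 loci listed in both strains, with a dashed line of equal folds. The 7 falls form the lower left group, in which R08E5.3 (−5.08 and −5.65) and pmp-5 (−4.59 and −4.31) lie farthest from 0.

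Neither strain table lists any of the 3 genes, where the authors called 63 of 14419 tested genes (0.437%) between the unstressed and 73 of 14358 (0.508%) between the stressed strains. Their strain difference can thus be described only across the 2 separately normalised stress tables. Without stress, VZ1 stood at 0.83 times the N2 level for acdh-1, 0.87 times for pmp-5 and 0.95 times for R08E5.3. Under arsenite the ratios were 0.49, 1.05 and 0.64. The ratios of acdh-1 are again of unlike loci. How far these tables share a scale can be seen only in part. At identical loci, the FPKM of unstressed N2 in its stress table over that in its strain table had a median ratio of 1.02 (7 genes), and stressed N2 had 0.99 (4 genes). No identical locus was available for VZ1. The only gene listed for an unstressed VZ1 library in both tables was lips-6, at 81.01 and 81.1 FPKM.

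Of the other genes of these pathways few were listed. The 8 lists hold 62 genes, of which 61 were found in the RefSeq gene table, and 2 of the 60 that are not among the 3 genes themselves appear in a stress table. In N2 151 of 14397 tested genes were listed in either direction (1.05%), and in VZ1 106 of 14420 (0.735%). Of 7 propionate shunt genes and their regulators, such as ech-6, hach-1, hphd-1, alh-8 and the nuclear receptor gene nhr-10, only acdh-1 was listed. Of 6 genes of the B12-dependent propionate pathway, among them the methylmalonyl-CoA mutase gene mmcm-1, 0 were listed in any table. Of 6 genes of B12 transport and processing only pmp-5 was listed, and of 14 genes of branched-chain amino acid breakdown 0 were. In its own family acdh-1 was the only one of 13 acdh genes listed, and pmp-5 the only one of 5 pmp genes. A gene that is not listed has no value here, so this does not show that it was unaltered.

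Of 17 methionine cycle and transsulfuration genes 1 was listed, cth-1, a cystathionine gamma-lyase gene. It fell from 103 to 20.3 FPKM in N2 (log2 fold −2.34), and VZ1 has no value for it in the stress table. Of the 5 genes beside or possibly related to R08E5.3, R08F11.4 was listed in both strains and rose, as did 0.799% of the genes tested in N2 and 0.610% in VZ1. It went from 1.48 to 18.9 FPKM in N2 (log2 fold 3.67) and from 4.44 to 64.1 FPKM in VZ1 (log2 fold 3.85). Its locus begins 29.5 kb after the end of R08E5.3, and the RefSeq gene table places 6 genes between them. In both strains R08F11.4 and R08E5.3 thus went opposite ways, from a low and a high unstressed level. cysl-3 and R08E5.1, the direct neighbours of R08E5.3, were in none of the 4 tables.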

How the data were processed

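Total RNA from whole animals was sequenced, and TopHat, Bowtie2, Cufflinks and build ce10 were used, per the submitters' processing notes. For versions, strandedness and annotation, nothing is given in the sources used here. The authors, per the file headers, deposited FPKM values for each pair of libraries on its own, with a p-value and a q-value for each called gene. From these, log2 folds (stressed over unstressed) were computed with no pseudocount in Python 3.11.15 with pandas 2.3.3. Genes were matched by name, after splitting merged names and removing prefixes. How many genes each table tested was recovered as q times rank over p, a step tested on simulated data. No test was made, since each group has 1 library, and p- and q-values printed are the authors'. Alternatives were pseudocounts, filters on low or merged loci, a stricter q and current gene names. The members and gene lists were chosen with earlier results of these data known. Named are the members, listed genes of the lists, the 3 nearest genes of each member, the shared falls and the falls ranked beside the members. The falls vit-4, col-3, lips-6, mir-260 and Y110A2AL.6 were named after their values were seen. C06E4.3, dod-24, ugt-13, hsp-16.41, C02D5.4 and cnp-3 were picked from the ranked strain differences, so also after their values were seen. The RefSeq gene table and gene models of WBcel235 were used for names, lengths and gene order only.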

Additional observations from a re-analysis of the deposited data

How the results depend on the processing

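A pseudocount cannot turn the sign of a fold, and centring moved the N2 log2 folds by 0.045, so the signs are no sign of stability. A pseudocount of 10 FPKM moved 4 of the 6 unlogged folds by more than 1.5 times, pmp-5 to −3.74 in N2 and −3.50 in VZ1 and R08E5.3 to −3.51 and −3.62, and a pseudocount shrinks the folds of low levels by construction. With a pseudocount of 1 FPKM the ranks in N2 became 2 for R08E5.3, 3 for pmp-5 and 10 for acdh-1. At the smallest q alone, 21 genes fell in N2 (36 in all), 9 in VZ1 (18 in all) and 3 in both (7 in all), and without genes at 0, 11 fell in VZ1. Of the other 70 recomputed values, 13 ranks were the same and 37 counts stayed within 1.5 times. Most of these counts were of 0 or 1 listed gene of a gene list, which left little room to change. The 11 folds and 9 differences of folds moved by less than 1.5 times on the unlogged scale. That allows a large move of a small difference, as for R08E5.3, whose difference of log2 folds was −0.58 with no pseudocount, −0.44 with 1 FPKM and −0.11 with 10 FPKM. VZ1 could not be centred on identical loci, as there are none. No paired analysis was possible because each group has 1 library. Depth is unknown, so no counting error can be given.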

Other observations

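Beside cth-1, another gene of sulfur amino acid metabolism, cbl-1, a cystathionine beta-lyase gene, was listed in both strains and rose. It was chosen after its values were seen. It stood at 58.8 and 328 FPKM in unstressed and stressed N2 (log2 fold 2.48) and at 54.1 and 349 FPKM in VZ1 (log2 fold 2.69). cth-1 and F44G3.2, whose loci lie 257 bp apart on chromosome V in the N2 stress table, both fell in N2. F44G3.2 went from 38.2 to 3.41 FPKM. Neither is listed for VZ1, and a difference between the strains was not tested. A second ABC transporter gene, mrp-7, also chosen after its values were seen, went the opposite way to pmp-5, from 21.7 to 101 FPKM in N2 and from 18.9 to 119 FPKM in VZ1.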
